A study of Mus musculus with 24 samples.

Results

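The experiment described here asked whether the combined loss of the transcription factors PU.1 and SpiB changed the same genes when B cells were activated in different ways. For each gene, the effect of the double loss, log2 (PU.1 SpiB DKO / control), was taken in cells cultured with LPS + IL-4 and in cells cultured with CD40L + IL-4, and the second was subtracted from the first. It used 8 of the 24 samples of the series, 2 PU.1 SpiB double knockout (DKO) and 2 control libraries in each culture, and 13075 of the 27179 genes in the count tables passed the filter on low counts. A positive difference means that the ratio of DKO to control was higher with LPS + IL-4, whether through a stronger rise there or a stronger fall with CD40L + IL-4.

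PU.1, encoded by *Spi1*, and SpiB, encoded by *Spib*, are closely related ETS family transcription factors that bind purine-rich GGAA sequences, alone or beside an interferon regulatory factor. Both are expressed in B cells, where they share many binding sites and can act in place of each other. LPS activates B cells through TLR4 and CD40L through CD40, a TNF receptor family member that receives help from T cells. IL-4, present in both cultures, acts through its own receptor and STAT6.

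All mice were C57BL/6, and the B cells came from lymph node. The controls were Cd23T/+ and the PU.1 SpiB DKO cells were Spi1fl/fl Cd23T/+ Spib-/-, so that all 8 libraries carried a Cre transgene under *Cd23* regulatory sequences, which acts from the time B cells are transitional. *Spib* was absent from the germline, while *Spi1* was floxed and deleted only where Cre acted. The labels give no age. The study's methods give a range of weeks for all its mice, with age and sex matched within an experiment. The study's methods call the libraries of a group biological replicates, the labels tie none of them to a mouse, and the p-values here measure the spread between the deposited libraries. By the study's account, the cells were cultured for 48 h and sorted as CD3- B220+ CD138-. A single extraction text that names CD40L + IL-4 stands with every sample, and the LPS + IL-4 cultures are identified by their titles and their cell type label.

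The 4 CD40L + IL-4 libraries and the 4 LPS + IL-4 libraries came from separately deposited count tables, so that stimulus and experiment cannot be told apart wherever levels are compared across cultures. The double-loss effect itself was always measured against the controls of the same culture. Its difference between cultures has the same limit. A genotype effect that differed between the experiments cannot be told apart from one that differed by stimulus. Total counts of these control and DKO libraries ran from 9598674 to 11334956 in CD40L + IL-4 and from 22757630 to 56388071 in LPS + IL-4. Levels are given in CPM, counts scaled to the TMM-adjusted library size, fold changes on the log2 scale with their standard error (SE). Differences were called at an adjusted p under 0.15 (edgeR quasi-likelihood test, Benjamini-Hochberg over all genes tested) with a change of more than 1.5-fold. The same thresholds defined a differentially expressed (DE) gene. Values in each sentence are in the order replicate 1, replicate 2.

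*Spib* was low in all DKO libraries. In LPS + IL-4 it was at 270.2 and 210.3 CPM in control and 14.3 and 11.4 CPM in DKO cells. In CD40L + IL-4 it was at 406 and 542 CPM in control and 11.6 and 9.16 CPM in DKO cells. *Spi1* was lower with CD40L + IL-4, where control libraries had 86.5 and 111 CPM and DKO libraries 33.1 and 25.9 CPM. It was not called with LPS + IL-4, where the corresponding values were 70.4 and 60.5 CPM and 60.8 and 56.4 CPM and the groups overlapped. The *Spi1* effect was -0.16 ± 0.16 in LPS + IL-4 (adjusted p = 0.54) and -1.74 ± 0.18 in CD40L + IL-4, a difference of 1.59 ± 0.24 (adjusted p = 0.00195, edgeR). These are counts over all exons of *Spi1* (chromosome 2, 91082374 to 91115759, GRCm38.p6), so that reads from exons outside the floxed part count too, and they do not check the deletion by themselves. In PU.1 cKO cells, read against the same controls, the *Spi1* value was -0.63 with LPS + IL-4 and -1.25 with CD40L + IL-4. The study reported complete excision of the floxed exon with CD40L + IL-4 and deletion at similarly high efficiency with LPS + IL-4. Exon-level reads were not analysed here. The *Spib* difference was 1.30 ± 0.32 (adjusted p = 0.0191), with DKO levels in overlapping ranges and controls at a higher level in CD40L + IL-4. *Mybpc3*, which lies next to *Spi1*, was at 0.268 CPM or less in all 4 controls and at 244 CPM or more in all 4 DKO libraries, with no called difference between cultures (-0.19 ± 0.80, adjusted p = 0.911).

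The difference was called for 3084 of 13075 genes, 23.6% of those tested, with 1685 positive (12.9%) and 1399 negative (10.7%). Within the cultures, 2479 genes (19.0%) were DE in LPS + IL-4, 1584 of them higher (12.1%) and 895 lower (6.85%) in DKO cells, and 2762 (21.1%) were DE in CD40L + IL-4, 1332 higher (10.2%) and 1430 lower (10.9%). Of the genes with a positive difference, 592 fell in CD40L + IL-4 without a call in LPS + IL-4, 467 rose in LPS + IL-4 without a call in CD40L + IL-4, 111 rose in both and 87 fell in both. Of those with a negative difference, 353 rose in CD40L + IL-4 alone, 268 fell in LPS + IL-4 alone, 61 rose in both and 14 fell in both. For 364 positive and 640 negative genes neither culture alone passed. Leaving out 1 library moved the count of 3084 most for replicate 2 of the LPS + IL-4 control (1548 called), replicate 2 of the CD40L + IL-4 DKO (1877) and replicate 1 of the LPS + IL-4 DKO (1987).

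**Figure D1:**
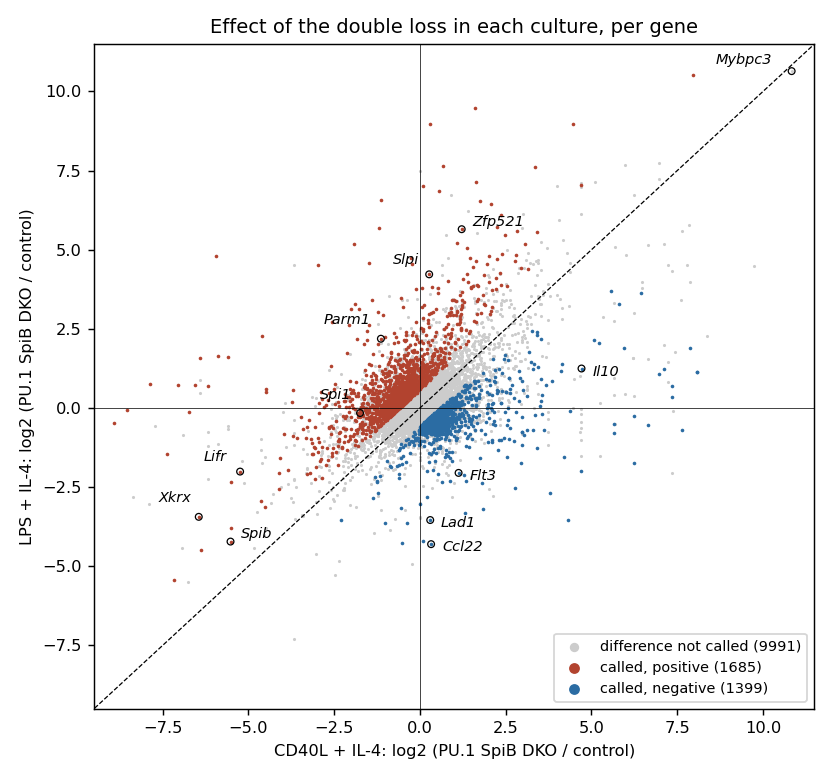
Double-loss effect in LPS + IL-4 (y axis, log2 DKO / control) against CD40L + IL-4 (x axis, log2 DKO / control), 1 point for each of 13075 genes, with the dashed line at equal effects. The 1685 genes in red lie above the line and the 1399 in blue below it. *Mybpc3* sits near the line at the top right, *Ccl22* and *Lad1* fell with LPS + IL-4 alone, and *Slpi* rose with LPS + IL-4 alone.

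Levels of the 2 cultures lay closer together without PU.1 and SpiB. Over all genes tested, the median absolute log2 ratio of LPS + IL-4 to CD40L + IL-4 was 0.557 in control and 0.354 in DKO cells, and the gap was smaller in DKO cells for 8568 genes (65.5%). Among the 3084 called genes it went from 1.065 to 0.369 and was smaller for 2596 (84.2%), a description that follows in part from how these genes were called. Stimulus and experiment cannot be told apart in these gaps, which hold for the control and the DKO cells of the same tables.

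The genes with the largest negative differences were of 2 kinds. The first were high in LPS + IL-4 controls and fell there. *Ccl22*, a chemokine that attracts CCR4+ T cells, was at 450.5 and 554 CPM in control and 13.6 and 37.7 CPM in DKO cells with LPS + IL-4. *Ccl22* with CD40L + IL-4 was at 74.8 and 188 CPM in control and 197 and 132 CPM in DKO cells, where the groups overlapped. Its difference was -4.63 ± 0.79 (adjusted p = 0.00362, edgeR). *Lad1*, encoding the anchoring filament protein ladinin, went from 148 and 121 CPM to 10.9 and 12.3 CPM with LPS + IL-4 and was at 3.94 and 7.79 CPM and 9.03 and 5.30 CPM with CD40L + IL-4. The stress-response factor *Atf3* fell from 14.3 and 21.6 CPM to 4.20 and 4.18 CPM with LPS + IL-4 and was low with CD40L + IL-4, at 1.98 CPM or less. The interferon-induced genes *Ifit1*, *Isg15* and *Rtp4* belonged to the same kind and are described with their group.

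The second kind was near the floor in CD40L + IL-4 controls and rose there. *Il10*, encoding the anti-inflammatory cytokine IL-10, had 3 counts in the 2 CD40L + IL-4 controls together and 77 in the DKO libraries, a ratio of 26.9 with a 95% counting interval of 8.88 to 133.0. In LPS + IL-4 it went from 6.93 and 6.60 CPM to 13.4 and 18.8 CPM, so that it rose in both cultures. *Mgll*, encoding monoacylglycerol lipase, was at 0.626 and 0.757 CPM in control and 8.15 and 8.0 CPM in DKO cells with CD40L + IL-4. *Mgll* with LPS + IL-4 was at 11.3 and 12.8 CPM in control and 9.36 and 11.8 CPM in DKO cells. *Tigit*, an inhibitory receptor, showed the same order, from 1.16 and 0.541 CPM to 10.3 and 10.02 CPM with CD40L + IL-4. *Tigit* with LPS + IL-4 went from 6.59 and 10.5 CPM to 9.20 and 11.1 CPM. With CD40L + IL-4, the DKO level of *Tigit* reached the range of the LPS + IL-4 libraries and that of *Mgll* stayed below it. *Lrrc32*, whose product GARP holds latent TGF-β at the cell surface, went from 2.42 and 0.541 CPM to 10.8 and 13.3 CPM with CD40L + IL-4 and did not pass with LPS + IL-4 (-0.28 ± 0.31, adjusted p = 0.565). *Sytl3*, a synaptotagmin-like Rab27 effector, had 2 counts in the CD40L + IL-4 controls and 24 in the DKO libraries (ratio 12.6, counting interval 3.13 to 110.0) and fell with LPS + IL-4 from 14.8 and 15.5 CPM to 8.01 and 10.7 CPM.

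The largest positive differences were again of 2 kinds. Some genes were low in LPS + IL-4 controls and rose there. *Zfp521*, a zinc finger factor that antagonises EBF1, was at 0.465 and 0.215 CPM in LPS + IL-4 control and 19.4 and 10.9 CPM in DKO cells. *Zfp521* with CD40L + IL-4 was at 19.8 and 14.4 CPM in control and 48.3 and 31.5 CPM in DKO cells, a difference of 4.43 ± 0.60 (adjusted p = 0.00137, edgeR). *Slpi*, a secreted protease inhibitor, rose from 1.44 and 1.38 CPM to 33.04 and 19.4 CPM with LPS + IL-4 and stayed within overlapping ranges with CD40L + IL-4, at 308 and 349.8 CPM in control and 448 and 346 CPM in DKO cells. The Fc receptor-like gene *Fcrls* (3.47 and 1.67 CPM to 40.6 and 37.2 CPM), the calmodulin-binding protein gene *Nrgn* (0.211 and 0.466 CPM to 11.7 and 13.8 CPM) and the glycosyltransferase gene *Extl1* (0.549 and 0.645 CPM to 7.68 and 7.63 CPM) rose with LPS + IL-4 in the same way. *Tgfb3* had a difference of 3.74 ± 1.31, but lost its call when replicate 2 of the LPS + IL-4 control, replicate 1 of the LPS + IL-4 DKO or replicate 1 of the CD40L + IL-4 control was left out.

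Other genes fell in DKO cells mainly with CD40L + IL-4, where their control level was higher. *Lifr*, the leukemia inhibitory factor receptor gene, was at 50.5 and 59.3 CPM in control and 1.98 and 0.964 CPM in DKO cells with CD40L + IL-4. *Lifr* with LPS + IL-4 was at 17.5 and 6.62 CPM in control and 3.56 and 2.26 CPM in DKO cells. *Xkrx* went from 58.9 and 76.4 CPM to 0.771 and 0.771 CPM with CD40L + IL-4. *Xkrx* with LPS + IL-4 went from 18.4 and 18.8 CPM to 1.80 and 1.62 CPM. The butyrophilin-like gene *Btnl1* went, in the same order, from 32.4 and 32.99 CPM to 0.771 and 0.675 CPM and from 4.35 and 2.60 CPM to 0.782 and 0.549 CPM. All 3 fell in both cultures, reached DKO levels under 4 CPM and had higher control levels with CD40L + IL-4. The predicted gene *Gm8465* had the same shape (3.15 ± 0.56), and its reads may be shared with related sequences. *Slc16a3*, encoding the lactate transporter MCT4, had a difference of 4.28 ± 1.70 (adjusted p = 0.101, edgeR). The call was lost without replicate 1 of the CD40L + IL-4 control, replicate 2 of the CD40L + IL-4 DKO, replicate 1 of the LPS + IL-4 DKO or replicate 2 of the LPS + IL-4 control. It was also lost by voom, after thinning of the LPS + IL-4 libraries to the CD40L + IL-4 depth, and at an adjusted p under 0.05. The same held where a mean deposited log2 RPKM above 0 was required in both cultures.

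In 127 genes (0.971% of those tested) the double loss acted in opposite directions, 64 rising with LPS + IL-4 and falling with CD40L + IL-4 and 63 the reverse. This count ranged from 36 to 218 when 1 library was left out. It was 36 without replicate 2 of the LPS + IL-4 control, 43 without replicate 2 of the CD40L + IL-4 DKO, 54 without replicate 1 of the LPS + IL-4 DKO and 218 without replicate 1 of the CD40L + IL-4 DKO. In the first group, the transcriptional repressor gene *Bhlhe41* rose from 11.6 and 5.92 CPM to 20.8 and 21.97 CPM with LPS + IL-4. *Bhlhe41* with CD40L + IL-4 fell from 59.4 and 40.3 CPM to 24.7 and 19.1 CPM. *Tanc2*, encoding a scaffold protein, went from 13.1 and 7.996 CPM to 22.7 and 19.7 CPM and from 65.6 and 32.01 CPM to 25.4 and 14.9 CPM in the same order. In both genes the DKO libraries of the 2 cultures lay closer together than the controls. *Parm1* (difference 3.33 ± 0.49), *Ryr2*, which encodes a calcium release channel (2.80 ± 0.83), *Syne2*, which encodes a nuclear envelope protein (2.06 ± 0.47), and the zinc finger gene *Zfp608* (2.00 ± 0.53) completed the 6 named by the rule. The control and DKO libraries of *Ryr2* overlapped with LPS + IL-4, as did those of *Syne2* with CD40L + IL-4.

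In the reverse group, *Gbp2*, an interferon-inducible GTPase gene, fell from 299 and 322 CPM to 114 and 92.6 CPM with LPS + IL-4. *Gbp2* with CD40L + IL-4 rose from 13.7 and 16.8 CPM to 27.7 and 28.4 CPM (difference -2.47 ± 0.28, adjusted p = 0.000618, edgeR). *Zbtb32*, a repressor of MHC class II genes in plasma cells, fell from 207 and 266 CPM to 107 and 135 CPM and rose from 1.79 and 4.43 CPM to 8.15 and 9.06 CPM, in the same order. *Flt3*, the receptor tyrosine kinase of early progenitors and dendritic cells, fell from 24.6 and 27.3 CPM to 6.49 and 6.04 CPM and rose from 2.68 and 4.54 CPM to 7.49 and 8.10 CPM. Control and DKO libraries did not overlap in either culture for these 3 genes. The stress-response gene *Gadd45b* (difference -2.00 ± 0.25), the actin nucleator gene *Spire1* (-3.10 ± 0.45) and the Wnt ligand gene *Wnt10b* (-1.87 ± 0.41) also fell with LPS + IL-4 and rose with CD40L + IL-4.

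**Figure D2:**
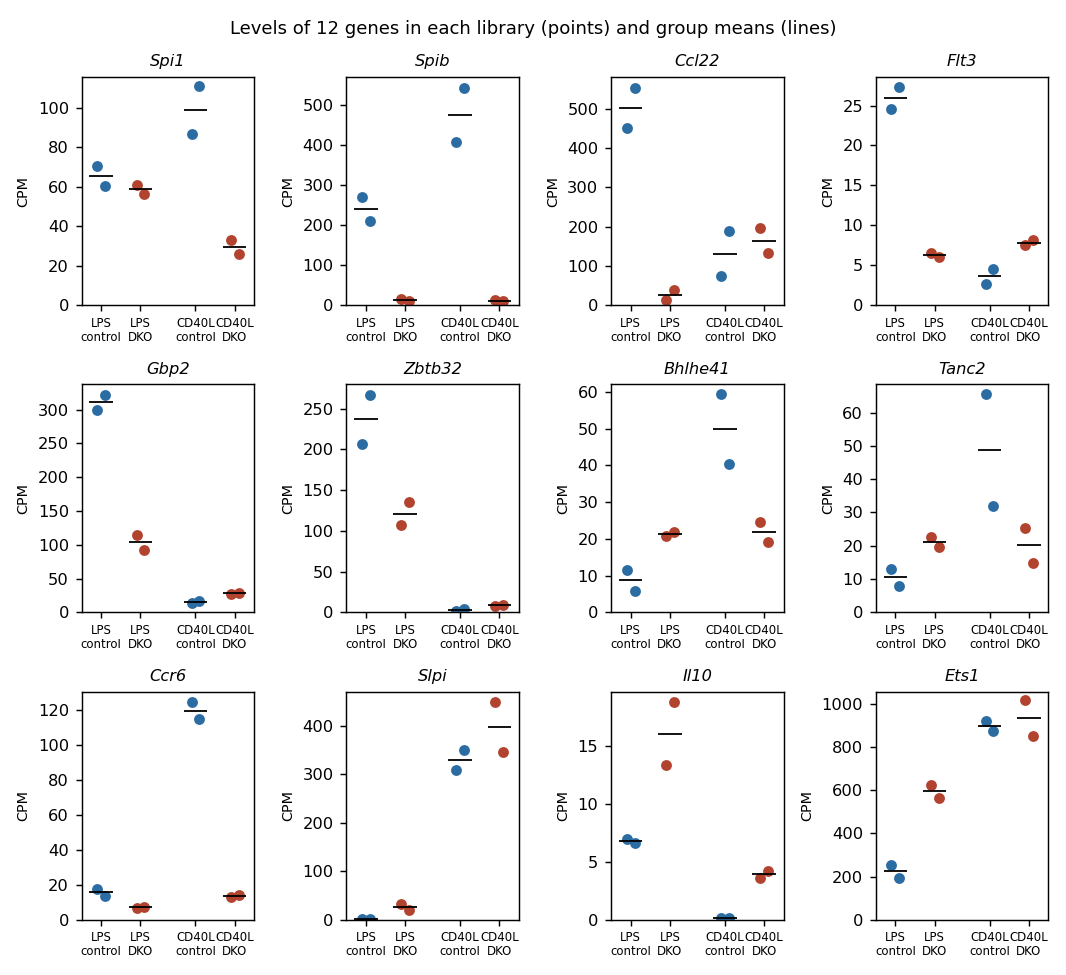
Level of 12 genes in CPM (y axis, from 0) in each library (points, control in blue and DKO in red) and group means (lines), for LPS + IL-4 on the left and CD40L + IL-4 on the right of each panel. *Flt3*, *Gbp2* and *Zbtb32* fell with LPS + IL-4 and rose with CD40L + IL-4, *Bhlhe41* and *Tanc2* the reverse, and *Spi1* fell in CD40L + IL-4.

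Interferon-stimulated genes fell mainly with LPS + IL-4. Of 25 such genes tested, 13 had a negative difference, against 10.7% of all genes, and 1, *Stat2*, a positive one, against 12.9%. Their median was -1.07 (-1.23 with groups at 0 counts set to the 3-count floor), against 0.04 over all genes. Of the 25, 24 fell with LPS + IL-4 (6.85% of all genes) and 11 with CD40L + IL-4 (10.9%), and none rose by edgeR, also at an unadjusted p under 0.05. Their summed level was 1548.8 and 1696.9 CPM in LPS + IL-4 control and 548.6 and 608.4 CPM in DKO cells, and 525.0 and 553.0 CPM in CD40L + IL-4 control and 377.0 and 369.1 CPM in DKO cells. In controls 23 of the 25 were higher with LPS + IL-4, by a median log2 ratio of 3.16, and in DKO cells 22, by 1.07. The negative count was 7 without replicate 2 of the CD40L + IL-4 DKO and 10 to 13 without each other library. It was 6 where a mean deposited log2 RPKM above 0 was required in both cultures, and 9 with all 24 libraries in the fit. The interferon-inducible gene *Gbp2*, which rose with CD40L + IL-4, was not among the 25.

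*Ifit1*, whose product binds viral RNA that lacks the host cap, was at 63.4 and 80.5 CPM in control and 6.52 and 9.21 CPM in DKO cells with LPS + IL-4. With CD40L + IL-4 it had 2 counts in controls and 7 in DKO libraries, a ratio of 3.67 whose counting interval of 0.699 to 36.2 includes no change. Its difference rests on CD40L + IL-4 libraries under 1 CPM, and the call was lost without replicate 1 of the CD40L + IL-4 DKO. *Isg15*, a ubiquitin-like modifier, fell from 97.5 and 118 CPM to 19.3 and 24.04 CPM with LPS + IL-4 and was at 0.626 and 0.541 CPM and 0.551 and 1.54 CPM with CD40L + IL-4. *Rtp4* went from 18.8 and 17.7 CPM to 1.49 and 1.43 CPM with LPS + IL-4 and stayed under 1 CPM with CD40L + IL-4. Low CD40L + IL-4 levels were common, with 9 of the 25 genes under 1 CPM in controls there. *Irf7*, the factor that amplifies interferon production, fell from 37.2 and 35.3 CPM to 3.72 and 4.39 CPM (difference -2.61 ± 0.45, adjusted p = 0.00385, edgeR).

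*Bst2*, encoding the virus-retaining protein tetherin, fell from 67.5 and 90.6 CPM to 36.9 and 37.1 CPM with LPS + IL-4 and was at 24.3 and 29.7 CPM and 28.96 and 35.3 CPM with CD40L + IL-4. The oligoadenylate synthetase genes *Oas1a*, *Oas3* and *Oasl2* fell in both cultures, and their differences were not called (-0.46 ± 0.37, 0.70 ± 0.67 and -0.32 ± 0.44). *Stat2* fell more with CD40L + IL-4 (-1.58 ± 0.23) than with LPS + IL-4 (-0.69 ± 0.22).

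**Figure D3:**
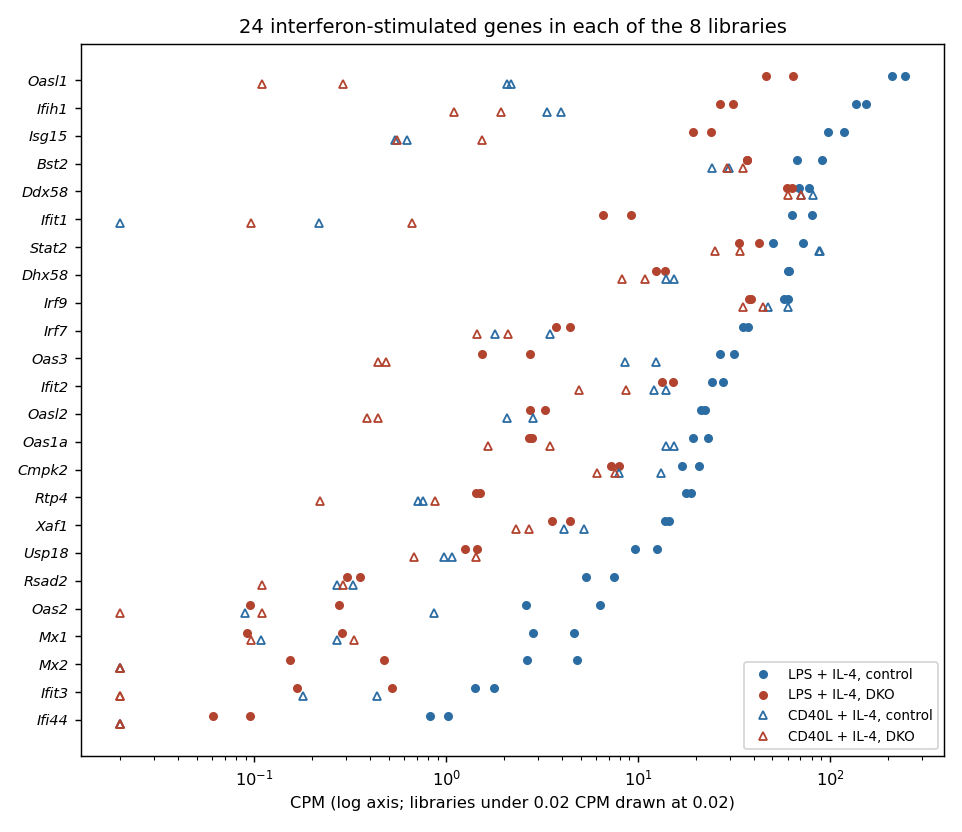
Levels of 24 of the 25 interferon-stimulated genes (rows, ordered by their LPS + IL-4 control mean) in each of the 8 libraries, in CPM on a log axis, with filled circles for LPS + IL-4, open triangles for CD40L + IL-4, blue for control and red for DKO. The blue circles lie to the right of the red ones for the 23 of these that fell with LPS + IL-4, and the summed level of all 25 was 1548.8 to 1696.9 CPM in those controls.

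Promoter windows of these genes are shown because the interferon response motif bound by interferon regulatory factors and STAT complexes recurs in them. Windows of 250 bases before to 50 bases after each start, from RefSeq on GRCm38.p6, were at hand for 9806 of the 13075 genes tested. They were searched on both strands for the interferon response motif (GAAA, any 2 bases, GAAA), for the ETS-IRF composite motif (GGAA, any 2 bases, GAAA) and for the purine-rich PU.1 sequence GAGGAAGT. The interferon response motif was found in 10 of the 18 interferon-stimulated genes with a window (55.6%), against 3.78% of all tested genes. The composite motif was found in 2 of the 18 and GAGGAAGT in none, against 2.86% and 3.93%. Over 12438 windows of tested genes, matches to the composite motif overlapped those to the interferon response motif in 16 and those to GAGGAAGT in 3. The capitals mark a match, written on the strand of the gene, where TTTC, 2 bases, TTTC is the same motif on the opposite strand:
Ifit1, chr19:34640775-34640804, plus strand: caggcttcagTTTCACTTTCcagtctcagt
Isg15, chr4:156200871-156200900, minus strand: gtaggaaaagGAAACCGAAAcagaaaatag
Bst2, chr8:71537577-71537606, minus strand: ccaggaaaatGAAACTGAAAggctgcagtt
Oas3, chr5:120777715-120777744, minus strand: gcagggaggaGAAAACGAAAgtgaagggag
The first 3 are from genes with a called negative difference and the last from a gene that fell in both cultures, so that the motif was found in both. Among all called genes, the interferon response motif was found in 4.12% of those with a negative and 3.36% of those with a positive difference, both near the 3.78% of all tested genes.

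Genes of B cell receptor (BCR) signalling fell mainly with CD40L + IL-4. Of 36 tested, 22 had a positive difference, against 12.9% of all genes, with a median of 0.68. None had a negative one in the main edgeR fit, also at an unadjusted p under 0.05, or by voom. By DESeq2 1 did. The same number did by edgeR with all 24 libraries, a replicate block, RLE factors, no filter on low counts or *Rn45s* removed. The median effect was 0.00 with LPS + IL-4, where 7 fell and 7 rose, and -0.69 with CD40L + IL-4, where 21 fell, against 10.9% of all genes, and 1 rose. The positive count was 14 without replicate 2 of the LPS + IL-4 control and 16 to 26 without each other library. *Rasgrp1*, a guanine nucleotide exchange factor for Ras, was at 108 and 83.2 CPM in control and 31.8 and 30.1 CPM in DKO cells with CD40L + IL-4. *Rasgrp1* with LPS + IL-4 was at 53.9 and 40.3 CPM in control and 66.6 and 58.95 CPM in DKO cells (difference 2.04 ± 0.42, adjusted p = 0.00852, edgeR). The Src family kinase gene *Blk* rose from 66.6 and 56.7 CPM to 92.9 and 98.95 CPM with LPS + IL-4. *Blk* with CD40L + IL-4 fell from 144 and 173 CPM to 95.9 and 91.5 CPM. The inhibitory coreceptor gene *Cd22* did the same, from 438 and 347 CPM to 646 and 555 CPM and from 860.4 and 879 CPM to 659.5 and 428 CPM. For these 3 genes the CD40L + IL-4 controls lay above the LPS + IL-4 controls.

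Several signalling intermediates fell in both cultures, and further with CD40L + IL-4. *Btk*, the Tec family kinase gene, went from 201 and 171 CPM to 114 and 113 CPM with LPS + IL-4. *Btk* with CD40L + IL-4 went from 175 and 174 CPM to 74.4 and 66.03 CPM (difference 0.60 ± 0.20, just past the fold threshold). *Rasgrp3* went from 132 and 116 CPM to 74.7 and 87.1 CPM and from 292 and 228 CPM to 70.6 and 91.6 CPM, in the same order. The adaptor gene *Pik3ap1* (difference 1.09 ± 0.28) followed the same course, and *Malt1* fell in CD40L + IL-4 only (-1.40 ± 0.19, against -0.15 ± 0.19 in LPS + IL-4). DKO levels of *Btk* were lower with CD40L + IL-4 than with LPS + IL-4, whereas those of *Rasgrp3* overlapped. The *Btk* call was lost by DESeq2, with RLE factors, with 8 or 24 libraries in the fit, without *Rn45s* and at an adjusted p under 0.05. With 1 library left out the *Btk* difference ran from 0.488 to 0.716. The adaptor gene *Blnk* did not reach the fold threshold (0.36 ± 0.14, adjusted p = 0.0996, edgeR), nor did *Syk* (0.49 ± 0.27) or the inhibitory Fc receptor gene *Fcgr2b* (0.56 ± 0.29).

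**Figure D4:**
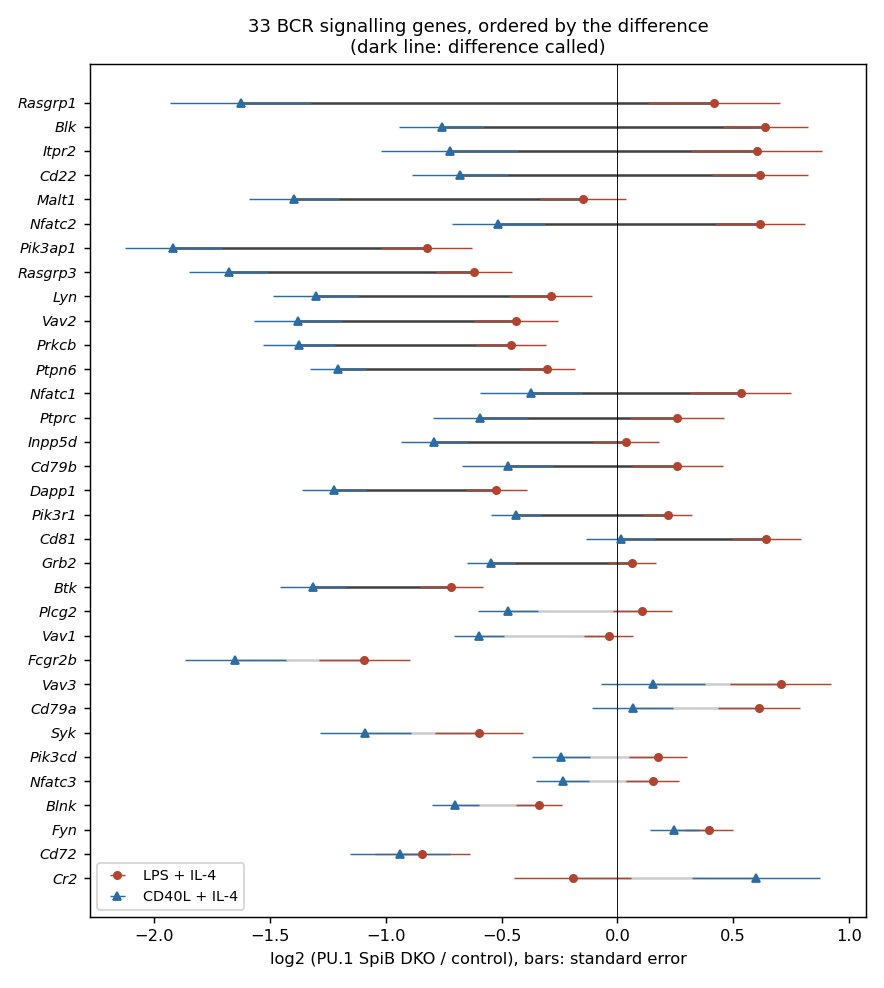
Double-loss effect (x axis, log2 DKO / control, bars for SE, 2 libraries a group) of 33 of the 36 BCR signalling genes in LPS + IL-4 (red circles) and CD40L + IL-4 (blue triangles), ordered by their difference, with a dark line where it was called. The triangles lie to the left of the circles in 32 of these 33 genes, and the called ones run from *Rasgrp1* at 2.04 to *Btk* at 0.60.

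In the BCR list, GAGGAAGT was found in 6 of the 29 genes with a window (20.7%), against 3.93% of all tested genes, the composite motif in 2 and the interferon response motif in none. The 6 were *Inpp5d*, *Grb2*, *Rasgrp3*, *Vav1*, *Nfatc3* and *Cd72*, the first 3 with a called positive difference and the last 3 without. The windows of 3 of them and of *Dapp1*, with the composite motif, are shown with the match in capitals, where TTTC, 2 bases, TTCC is the composite motif on the opposite strand:
Rasgrp3, chr17:75435844-75435873, plus strand: ggaaagaatagGAGGAAGTgggcctgccat
Inpp5d, chr1:87620281-87620310, plus strand: gtttctataatGAGGAAGTtctgtgcagct
Vav1, chr17:57279078-57279107, plus strand: cagtcacagaaGAGGAAGTggtgttgtagt
Dapp1, chr3:137981544-137981573, minus strand: agcaaccaagTTTCACTTCCttgctagcca
*Inpp5d*, which encodes the phosphatase SHIP1, was at 588 and 469 CPM in control and 311 and 299.9 CPM in DKO cells with CD40L + IL-4. *Inpp5d* with LPS + IL-4 was at 381 and 319 CPM in control and 361 and 357 CPM in DKO cells. *Vav1* fell with CD40L + IL-4 (-0.60 ± 0.11) and its difference of 0.56 ± 0.15 stayed under the fold threshold. *Dapp1* had a difference of 0.70 ± 0.19. Among all called genes with a positive difference, GAGGAAGT was found in 5.11%.

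MHC class II genes fell with CD40L + IL-4 as a group. Of 13 tested, 8 had a positive difference, against 12.9% of all genes, and none a negative one by edgeR (none at an unadjusted p under 0.05), DESeq2 or voom. With CD40L + IL-4, 12 fell, against 10.9% of all genes, and with LPS + IL-4 2 did, *Ctss* and *Ifi30* (6.85%). *Ciita*, the master activator of these genes, was at 715 and 498 CPM in control and 209 and 199 CPM in DKO cells with CD40L + IL-4. *Ciita* with LPS + IL-4 was at 415 and 269 CPM in control and 299 and 247 CPM in DKO cells, where the groups overlapped. The invariant chain gene *Cd74* fell from 14732 and 19805 CPM to 9238 and 8389.9 CPM with CD40L + IL-4, with 7512 and 6340.0 CPM and 5039 and 5602 CPM in LPS + IL-4. The peptide-loading genes *H2-DMa* (0.85 ± 0.21), *H2-Ob* (1.02 ± 0.41) and the paralog *H2-Eb2* (0.91 ± 0.34) had positive differences, while the classical chains *H2-Aa* (0.39 ± 0.25) and *H2-Ab1* (0.39 ± 0.23) did not pass. Reads of *H2-DMb1* and *H2-DMb2* may be split between these close copies. The count of 8 moved with single libraries. It was 2 without replicate 2 of the LPS + IL-4 control, and 3 without replicate 1 of the LPS + IL-4 DKO, replicate 2 of the CD40L + IL-4 control or replicate 2 of the CD40L + IL-4 DKO.

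Homing receptor and integrin genes moved both ways, with 10 positive and 2 negative differences in 20 tested, against 12.9% and 10.7% of all genes, and a median of 0.83. *Ccr6*, the receptor of CCL20, fell from 124 and 114 CPM to 12.9 and 14.3 CPM with CD40L + IL-4. *Ccr6* with LPS + IL-4 went from 17.8 and 13.2 CPM to 6.87 and 7.32 CPM (difference 2.02 ± 0.28, adjusted p = 0.00137, edgeR). *S1pr1*, whose product guides lymphocytes out of lymph nodes, rose with LPS + IL-4 alone, from 52.5 and 30.3 CPM to 89.1 and 93.8 CPM, and was at 139.8 and 139 CPM and 144 and 70.2 CPM with CD40L + IL-4. The 2 negative genes were *Ccr10*, a mucosal homing receptor with 3 counts in the CD40L + IL-4 controls and 182 in the DKO libraries (ratio 63.7, counting interval 21.4 to 312.0), and the integrin gene *Itgb1*. The latter rose with CD40L + IL-4 alone from 112 and 126 CPM to 271 and 224 CPM. The positive count was 6 without replicate 2 of the LPS + IL-4 control or replicate 2 of the CD40L + IL-4 DKO.

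Genes of B cell regulators had 11 positive differences and 1 negative, *Id2*, in 20 tested (median 0.64), against 12.9% and 10.7% of all genes. With CD40L + IL-4, 9 fell, against 10.9% of all genes, and with LPS + IL-4 none did by edgeR (2 were lower at an unadjusted p under 0.05). *Bcl11a*, needed early in the B lineage, fell from 391 and 398 CPM to 143 and 144 CPM with CD40L + IL-4 and was at 258 and 236 CPM and 177 and 178 CPM with LPS + IL-4. The E protein gene *Tcf4* (0.93 ± 0.19), *Mef2c* (0.75 ± 0.22), *Bach2*, a repressor of plasma cell differentiation (0.65 ± 0.22), and *Bcl6*, the germinal centre factor (1.70 ± 0.58), had positive differences. Those of *Bach2* and *Bcl6* lost their calls at an adjusted p under 0.05. With 1 library left out they ran from 0.437 to 0.843 for *Bach2* and from 1.12 to 2.14 for *Bcl6*. *Pax5* (0.42 ± 0.24, adjusted p = 0.236), *Tcf3* (-0.25 ± 0.15), *Irf8* (0.53 ± 0.15) and the coactivator gene *Pou2af1* (0.47 ± 0.17) were not called by edgeR. With no minimum fold *Irf8* and *Pou2af1* were called, the latter also by voom. With 1 library left out *Irf8* ran from 0.458 to 0.595 and *Pax5* from 0.234 to 0.645. The positive count was 4 without replicate 1 of the CD40L + IL-4 control or replicate 2 of the LPS + IL-4 control, and 5 without replicate 2 of the CD40L + IL-4 DKO or replicate 1 of the LPS + IL-4 DKO. Of 15 ETS family genes tested, *Spi1* and *Spib* included, 8 had a positive difference, against 12.9% of all genes (5 without replicate 1 of the CD40L + IL-4 control or replicate 2 of the CD40L + IL-4 DKO). None had a negative one in the main edgeR fit (1 at an unadjusted p under 0.05) or by DESeq2. By voom or with no minimum fold 1 did, and 2 did after thinning of the LPS + IL-4 libraries. Both targeted genes, *Spi1* and *Spib*, were among the 8 with a positive difference. *Ets1*, which restrains plasma cell differentiation, rose from 252 and 195 CPM to 627 and 563 CPM with LPS + IL-4 and was at 922 and 877 CPM and 1018 and 851 CPM with CD40L + IL-4. *Elf4* fell with CD40L + IL-4 (-0.78 ± 0.12) with a difference of 1.08 ± 0.16.

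Plasma cell genes rose in both cultures. Of 20 tested, 15 rose with LPS + IL-4, against 12.1% of all genes, and 16 with CD40L + IL-4, against 10.2%, and none fell by edgeR, also at an unadjusted p under 0.05. The difference was positive in 2 and negative in 7, against 12.9% and 10.7% of all genes. The negative count was 3 without replicate 2 of the LPS + IL-4 control or replicate 2 of the LPS + IL-4 DKO, 4 without replicate 1 of the LPS + IL-4 DKO or replicate 2 of the CD40L + IL-4 control, and 5 or 6 without each other library. *Prdm1*, encoding the plasma cell regulator Blimp-1, rose from 22.02 and 18.5 CPM to 61.3 and 55.7 CPM with LPS + IL-4. *Prdm1* with CD40L + IL-4 went from 8.50 and 9.41 CPM to 46.4 and 51.2 CPM, a difference of -0.91 ± 0.19 (adjusted p = 0.00928, edgeR). *Sdc1*, which encodes the CD138 antigen that the sort excluded, was at 8.37 and 7.57 CPM in control and 7.87 and 7.29 CPM in DKO cells with LPS + IL-4. *Sdc1* with CD40L + IL-4 rose from 4.38 and 4.33 CPM to 19.9 and 17.6 CPM. *Mzb1*, an endoplasmic reticulum chaperone gene of secreting B cells, also rose further with CD40L + IL-4 (1.59 ± 0.15, against 0.85 ± 0.15). *Irf4* (0.03 ± 0.27), *Xbp1* (0.56 ± 0.21), the elongation factor gene *Ell2* (0.42 ± 0.22) and *Cebpb* (-0.36 ± 0.27) rose in both cultures with no difference called by edgeR. That of *Xbp1* was under the fold threshold and was called by voom (0.967), with no minimum fold, after thinning of the LPS + IL-4 libraries, and without replicate 1 of the CD40L + IL-4 control or replicate 2 of the CD40L + IL-4 DKO. *Ell2* was called without replicate 2 of the CD40L + IL-4 control. In these bulk libraries, fewer cells of a type and less RNA per cell cannot be told apart. The summed level of 6 plasma cell markers was 496.7 to 500.5 CPM in control and 1255.0 to 1263.8 CPM in DKO cells with LPS + IL-4. With CD40L + IL-4 it was 1069.6 to 1250.0 CPM and 2069.6 to 2184.2 CPM. The part of plasma cell numbers in these results was not tested.

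Of 38 genes that serve protein folding in the endoplasmic reticulum or the unfolded protein response, 21 rose with CD40L + IL-4, against 10.2% of all genes, and 9 with LPS + IL-4, against 12.1%. None fell by edgeR, also at an unadjusted p under 0.05, and 7 had a negative and 1 a positive difference. *Hspa5*, encoding the chaperone BiP, was at 1008 and 1312 CPM in control and 2381 and 2353 CPM in DKO cells with CD40L + IL-4. *Hspa5* with LPS + IL-4 was at 1762 and 2056 CPM in control and 2216 and 2288 CPM in DKO cells, with a higher control level than in CD40L + IL-4. The chaperone gene *Hyou1* (-0.72 ± 0.19) and *Manf* (-0.69 ± 0.27) had the same shape. The share of 21.1% called lies near the 23.6% of all genes. The negative count was 0 without replicate 2 of the LPS + IL-4 control, 3 without replicate 1 of the LPS + IL-4 DKO or replicate 2 of the CD40L + IL-4 DKO. It was 5 without replicate 1 and 13 without replicate 2 of the CD40L + IL-4 control, and 12 without replicate 1 of the LPS + IL-4 control. Among heavy chain constant regions, *Ighm* and *Ighg1* rose in both cultures without a called difference (0.20 ± 0.19 and -0.50 ± 0.28). *Ighe* fell with LPS + IL-4 from 30.5 and 28.8 CPM to 11.97 and 10.1 CPM and varied from 34.2 to 97.5 CPM between the CD40L + IL-4 DKO libraries.

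No difference was called by edgeR for the receptors of the stimuli. *Cd40* fell from 183 and 207 CPM to 39.1 and 46.6 CPM with LPS + IL-4. *Cd40* with CD40L + IL-4 went from 116 and 167 CPM to 32.04 and 39.5 CPM (difference -0.21 ± 0.23, adjusted p = 0.575, edgeR). *Tlr4* fell from 18.7 and 23.6 CPM to 13.3 and 13.8 CPM and from 15.6 and 19.6 CPM to 11.01 and 8.10 CPM, in the same order (0.23 ± 0.25). Its coreceptor genes *Ly96* (0.22 ± 0.36) and *Cd180* (0.21 ± 0.23) had no called difference. *Il4ra*, the IL-4 receptor α chain gene, rose by 1.17 ± 0.14 with LPS + IL-4 and 0.70 ± 0.14 with CD40L + IL-4, a difference of 0.47 ± 0.19 that was called by voom (0.882), with no minimum fold, and without replicate 1 of the CD40L + IL-4 control or of the CD40L + IL-4 DKO. *Fcer2a*, encoding CD23, fell in both (-1.97 ± 0.15 and -1.79 ± 0.15). The BAFF receptor gene *Tnfrsf13c* fell in both, with a difference of 0.19 ± 0.23. These uncalled differences had SE of 0.19 to 0.36, so that moderate differences could be missed.

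Differences were called for other receptors and for signalling genes. *Tlr9*, the endosomal sensor of CpG DNA, fell from 88.1 and 68.6 CPM to 26.5 and 31.5 CPM with LPS + IL-4. *Tlr9* with CD40L + IL-4 went from 129 and 147 CPM to 25.2 and 21.9 CPM (1.12 ± 0.27, adjusted p = 0.0178, edgeR). The adaptor gene *Myd88* rose with CD40L + IL-4 alone (0.95 ± 0.13). *Traf1*, a target and adaptor of TNF receptor signalling, fell with LPS + IL-4 from 254 and 298 CPM to 129 and 138 CPM and was at 76.4 and 97.8 CPM and 80.6 and 91.2 CPM with CD40L + IL-4. The NF-κB subunit gene *Rel* fell more with CD40L + IL-4 (-1.83 ± 0.27) than with LPS + IL-4 (-0.70 ± 0.25). The *Rel* difference of 1.13 lost its call at an adjusted p under 0.05 and ran from 0.427 to 1.598 with 1 library left out. The inhibitor genes *Nfkbia* (-0.69 ± 0.22), *Nfkbib* (-0.68 ± 0.20) and *Nfkbid* (-0.87 ± 0.38) had negative differences. *Nfkbid* lost its call with each of the 8 libraries left out. *Nfkbia* and *Nfkbib* lost theirs without replicate 1 of the CD40L + IL-4 control, replicate 2 of the CD40L + IL-4 DKO or replicate 1 of the LPS + IL-4 DKO, and *Nfkbia* also without replicate 2 of the LPS + IL-4 control. *Nfkb1* did not pass (-0.27 ± 0.19). By list, 4 of 22 TLR genes, 3 of 18 CD40 and TNF receptor genes, 4 of 14 NF-κB genes and 5 of 20 genes of the IL-4 receptor and STAT6 programme were called, against 23.6% of all genes. The TLR count was 1 without replicate 2 of the CD40L + IL-4 DKO, 2 without replicate 1 of the LPS + IL-4 DKO or replicate 2 of the LPS + IL-4 control, and 8 without replicate 1 of the CD40L + IL-4 DKO. The NF-κB count was 0 without replicate 2 of the CD40L + IL-4 DKO, and 1 without replicate 1 of the CD40L + IL-4 control, replicate 1 of the LPS + IL-4 DKO or replicate 2 of the LPS + IL-4 control. The CD40 and TNF receptor count was 1 by DESeq2 or with 8 libraries in the fit. The IL-4 programme had 3 without replicate 2 of the LPS + IL-4 control and 8 by voom. In the IL-4 programme, the feedback inhibitor gene *Socs2* rose with LPS + IL-4 from 32.8 and 30.5 CPM to 243 and 169 CPM and with CD40L + IL-4 from 219.6 and 210.0 CPM to 512 and 452 CPM. The AP-1 factor gene *Batf* rose in CD40L + IL-4 (0.93 ± 0.18) with a difference of -1.47 ± 0.25.

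Of all genes, 23.6% were called in either direction and 10.7% with a negative difference. Of 16 chemokine and cytokine genes, 4 (25%) were called, *Ccl22*, *Il10*, *Ccl5* and *Ebi3*, all with a negative difference. None had a positive one in the main edgeR fit (1 at an unadjusted p under 0.05), by DESeq2 or by voom. With a replicate block, no filter on low counts or no minimum fold 1 did. *Ebi3*, a subunit of IL-27 and IL-35, fell from 71.98 and 82.02 CPM to 14.5 and 20.3 CPM with LPS + IL-4. *Ebi3* with CD40L + IL-4 went from 18.97 and 20.01 CPM to 6.94 and 10.3 CPM. *Ccl5* varied between the CD40L + IL-4 controls, at 8.14 and 30.7 CPM. *Csf1*, the macrophage growth factor gene, rose in both cultures (4.19 ± 0.41 and 3.43 ± 0.41) and was not called (0.76 ± 0.54). Of 15 BCL2 family genes, 4 (26.7%) were called, all with a negative difference, against the same 23.6% and 10.7% of all genes. None had a positive one by edgeR (none at an unadjusted p under 0.05), DESeq2 or voom. The survival gene *Bcl2l1*, encoding BCL-XL, rose with CD40L + IL-4 from 34.2 and 42.8 CPM to 54.3 and 74.5 CPM and was at 108 and 149 CPM and 104 and 109 CPM with LPS + IL-4. Reads of *Bcl2a1a*, *Bcl2a1b* and *Bcl2a1d* may be split between near-identical copies, and their values are uncertain. *Bcl2* itself fell in both cultures, with a difference of 0.40 ± 0.22.

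Among activation markers, *Ly6a*, encoding Sca-1, rose from 51.9 and 62.3 CPM to 302 and 409 CPM with CD40L + IL-4. *Ly6a* with LPS + IL-4 went from 166 and 192 CPM to 267 and 281 CPM (difference -2.03 ± 0.28). *Cd86*, a ligand for CD28, fell in both (-1.82 ± 0.25 and -1.27 ± 0.27). The proto-oncogene *Myc* rose with CD40L + IL-4 alone, from 101 and 87.5 CPM to 143 and 176 CPM, with 211 and 247 CPM and 159 and 167 CPM in LPS + IL-4, a difference of -1.25 ± 0.25 (adjusted p = 0.00776, edgeR). Of 31 cell cycle genes, 4 had a positive and 2 a negative difference, 19.4% against 23.6% of all genes. The negative count was 6 without replicate 1 of the LPS + IL-4 control, 4 without replicate 2 of the LPS + IL-4 DKO or replicate 1 of the CD40L + IL-4 DKO, and 1 or 2 without each other library. *Slc16a1*, the lactate transporter gene MCT1, had a negative one (-1.50 ± 0.29) and was with *Slc16a3* the only called member of 16 glycolysis genes, and none of 17 sterol synthesis genes was called by edgeR (4 at an unadjusted p under 0.05), DESeq2 or voom.

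**Figure D5:**
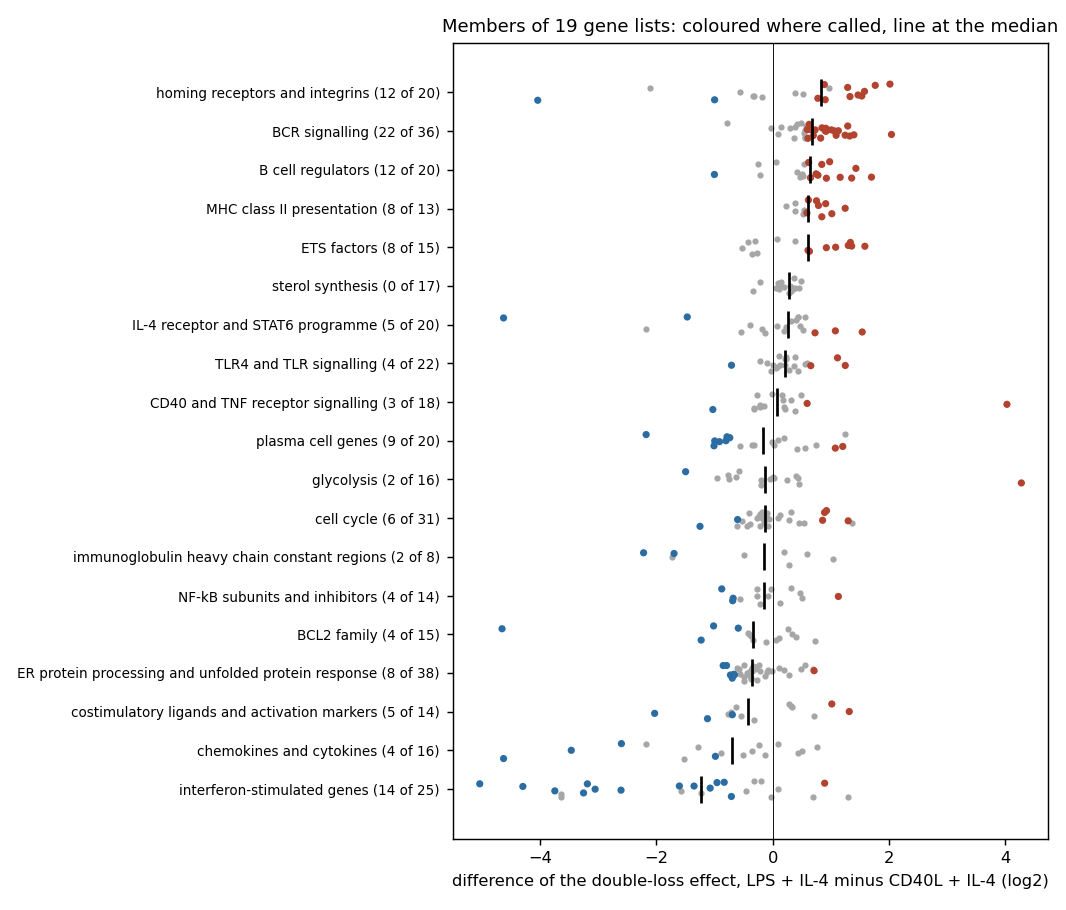
Difference of the double-loss effect (x axis, log2, LPS + IL-4 minus CD40L + IL-4) of every tested member of 19 gene lists (rows, with the number called of those tested), coloured red or blue where called and with a line at the list median. Groups at 0 counts were set to the 3-count floor. Medians run from -1.23 for interferon-stimulated genes to 0.83 for homing receptors and integrins.

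The 8 markers of B cells, the labelled cell type, summed to 6232.3 to 8066.7 CPM in control and 3918.0 to 5065.5 CPM in DKO cells with CD40L + IL-4. With LPS + IL-4 the sums were 3445.6 to 3981.8 CPM and 3870.8 to 3874.8 CPM. *Cd3d*, *Cd3e*, *Cd3g* and *Cd4* of T cells and all 6 neutrophil markers did not pass the filter. The 3 T cell markers that did (*Lck*, *Cd8a* and *Cd8b1*, of 9) summed to 18.6 to 19.4 CPM in control and 57.8 to 60.7 CPM in DKO cells with LPS + IL-4. Nearly all of this sum was *Lck*, which rose, while *Cd8a* and *Cd8b1*, at 1.14 CPM or less, fell there. The corresponding sums with CD40L + IL-4 were 39.3 to 42.1 CPM and 60.1 to 70.2 CPM. The 6 of 8 plasmacytoid dendritic cell markers that passed, *Bst2* and *Tcf4* among them, summed to 438.5 to 788.2 CPM per library, and 5 of 7 conventional dendritic cell markers, *Flt3* among them, to 6.26 to 32.4 CPM. Of 6 NK cell markers, 3 passed and summed to at most 4.72 CPM. Of 9 macrophage and monocyte markers, 3 passed (*Emr1*, *Cd68* and *Itgam*), and *Csf1r*, *Lyz2* and *Cd14* did not. Their sum was 45.3 to 61.4 CPM in CD40L + IL-4 control and 8.68 to 11.7 CPM in DKO cells, and 11.6 to 18.0 CPM and 5.92 to 7.06 CPM with LPS + IL-4. It moved in the same direction as the BCR and MHC class II genes, and its part in these results was not tested.

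In PU.1 cKO cells (Spi1fl/fl Cd23T/+) the same difference was called for 382 genes (2.92%, 1690 at an unadjusted p under 0.05), and in SpiB KO cells (Spi1fl/fl Cd23+/+ Spib-/-) for 0 by edgeR (415 at an unadjusted p under 0.05). These comparisons share the control libraries of each culture with that of the double loss, and the values stand side by side without a test. *Slpi* had a difference of 3.80 in PU.1 cKO cells and -0.20 in cells without SpiB, beside 3.95 in DKO cells. *Tigit* had -2.71, -1.55 and -3.31, in the same order, and *Gbp2* had -1.99, -0.67 and -2.47. *Ccl22* was far from its double-loss value in both, at -0.86 and -1.54 beside -4.63, and so was *Rasgrp1*, at 0.19 and 0.65 beside 2.04. The medians of the BCR list were 0.32, 0.16 and 0.68 and those of the interferon-stimulated genes -0.50, -0.96 and -1.07, with 5 interferon-stimulated genes called after loss of PU.1 and none after loss of SpiB.

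Around *Spi1*, *Spib* and *Fcer2a* the share of called genes was near that of all genes. Of these, *Spi1* and *Spib* were altered in DKO cells. *Fcer2a* was not, and the Cre transgene with its regulatory sequences was carried by control and DKO cells. Within 5 Mb of *Spi1*, 9 of 45 tested genes were called (20%), within 5 Mb of *Spib* on chromosome 7 30 of 114 (26.3%) and within 5 Mb of *Fcer2a* on chromosome 8 5 of 28 (17.9%), against 23.6% of all genes.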

How the data were processed

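The authors aligned the reads to GRCm38/mm10 with Subread and summarised uniquely mapping ones over RefSeq exons with featureCounts, and deposited raw counts per gene in separate tables for the CD40L + IL-4 and the remaining libraries. Tool versions are not given in the sources used here. Log2 RPKM values deposited by the authors, quantile normalized, served only as a threshold in 1 alternative. Reads were not aligned again here.

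The 16 libraries of both cultures and all 4 genotypes entered 1 edgeR (4.0.16, R 4.3.3) quasi-likelihood fit with a mean for each group, TMM factors and genes kept at 0.5 CPM or more in 2 or more of 16 libraries, which left 8 residual degrees of freedom. The contrast was (DKO - control in LPS + IL-4) - (DKO - control in CD40L + IL-4). SE were taken as the absolute log2 fold change over the root of the F statistic. Entries without a symbol (517, 0.166% of counts) stayed in the library totals. Positions and promoters came from RefSeq on GRCm38.p6, and 12751 tested genes had a position. Intervals and floors (3 counts) cover counting error only. DESeq2 (1.42.0) and limma voom (3.58.1) were alternatives. The scripts were tested on simulated data. Some genes and 1 list are not reported here.

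The members, the gene lists and the named genes were chosen with earlier results of these data known. Named were *Spi1*, *Spib* and *Mybpc3*, the 12 largest called differences in each direction and the 6 strongest opposite genes in each orientation with at least 10 CPM in a group, up to 4 called members per list, and a fixed set of regulators and receptors. Other list members in the text were chosen after their values were seen.

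Groups share replicate numbers, and the labels do not say what a number marks. Correlations between the deviations of same-numbered libraries were 0.574 to 0.795 in LPS + IL-4 and 0.0222 to 0.545 in CD40L + IL-4, all positive. Between control and DKO libraries they were 0.702 in LPS + IL-4 and 0.0774 in CD40L + IL-4. Same-numbered libraries may thus share an effect, most clearly in LPS + IL-4, which the main fit did not model. A fit with a replicate block is among the alternatives. Leaving out 1 library also leaves such an effect unbalanced between the groups. Replicates correlated at 0.9854 to 0.9949 (log2 CPM). The ribosomal transcript *Rn45s* took 6.638% of counts in replicate 1 of the CD40L + IL-4 DKO and at most 1.863% in the other 7 libraries.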

Additional observations from a re-analysis of the deposited data

Results flagged for a closer look

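The double loss had effects that differed between the cultures, by a test of the difference itself, for 3084 genes. For *Spi1* the difference was 1.59 and for *Spib* 1.30. The genes that moved in opposite directions and were named by the rule were *Tanc2* (2.31), *Syne2* (2.06), *Ryr2* (2.80), *Zfp608* (2.00), *Parm1* (3.33) and *Bhlhe41* (2.51), which rose with LPS + IL-4 and fell with CD40L + IL-4, and *Gadd45b* (-2.00), *Wnt10b* (-1.87), *Spire1* (-3.10), *Gbp2* (-2.47), *Flt3* (-3.18) and *Zbtb32* (-2.47), which did the reverse. All are differences of log2 (DKO / control), LPS + IL-4 minus CD40L + IL-4, and each passed in the edgeR fit. Groups held 2 libraries, so that no library was tested for standing apart from its group.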

How the results depend on the processing

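The 3084 called differences were 1833 at an adjusted p under 0.05 (957 positive, 876 negative) and 1548 to 3700 with 1 library left out (837 to 1999 positive, 711 to 1701 negative). With the replicate number of each culture as a replicate block, 3440 were called, 3049 of them among the 3084 (98.9%). DE genes in LPS + IL-4 (2479) were 1402 with a mean deposited log2 RPKM above 0 in both cultures, 4623 with no minimum fold and 1640 to 2808 with 1 library left out. DE genes in CD40L + IL-4 (2762) were 1826 and 4908 under the first 2 settings. The 127 opposite genes were 52 at an adjusted p under 0.05, 613 with no minimum fold and 36 to 218 with 1 library left out. Other settings (DESeq2, voom, RLE or upper quartile scaling, other filters, 8 or 24 libraries, thinned LPS + IL-4 libraries, *Rn45s* removed) kept these counts within 1.5 times. The positive share, 54.6% of calls, was between 48.8% and 56.9% under other scalings. The differences of *Spi1* and *Spib* kept their direction and call under all settings run. Over all called genes, 1 had the other sign by voom. The same number did without replicate 1 of the CD40L + IL-4 control, replicate 1 of the CD40L + IL-4 DKO or replicate 2 of that DKO. Among the named genes, reversals concerned uncalled values, apart from *Ighg2b*, at -3.082 to 0.551 with 1 library left out and the latter without replicate 2 of the CD40L + IL-4 DKO. *Irf4*, near 0, was -0.012 with 8 libraries, -0.018 with 24, -0.004 with DESeq2, -0.004 with RLE factors, -0.012 without *Rn45s*, and -0.119 to 0.201 with 1 library left out, with -0.062 and -0.059 among these. *Mybpc3* was 0.162 after thinning and -5.404 to 0.671 with 1 library left out (the latter without replicate 2 of the CD40L + IL-4 control), *Cd40* -0.494 to 0.038 (the latter without replicate 1 of that control) and *Fcer2a* -0.391 to 0.067 (the latter without replicate 2 of the CD40L + IL-4 DKO). The causes were not tested. With 2 libraries a group and at most 11334956 counts in a CD40L + IL-4 control or DKO library, genes near 1 CPM there rest on few counts.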
